A study of Mus musculus with 9 samples.

Results

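The ion channel genes that shape electrical signalling were read out of pS6-IP RNAseq of the mouse olfactory epithelium (OE). They were chosen by name alone, as every gene whose symbol starts with Kcn (potassium channels), with Scn and a digit (voltage-gated sodium channels) or with Cacn (voltage-gated calcium channels), together with the auxiliary subunits that carry the same prefixes. The rule found 135 of the 23607 genes in the tables, 1 of which, Kcnq1ot1, is a non-coding RNA antisense to Kcnq1. The 9 mice were C57BL/6, in 3 groups of 3 that were exposed for 1 hr to distilled water (control), to 1% heptanal or to 100% heptanal, an aldehyde odorant. Each group held 1 mouse of postnatal day 22, 1 of postnatal day 21 and 1 of postnatal day 18, and the methods describe mice processed together as littermates of the same sex, so that litter and age cannot be told apart. The pulldown used an antibody against phosphorylated ribosomal protein S6, which marks recently active neurons, on homogenate of the whole tissue, so RNA of any cell type with phosphorylated S6 can be recovered.

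Olfactory sensory neurons (OSNs) turn odorant binding into an inward current through the cyclic nucleotide-gated channel and a calcium-activated chloride channel, neither of which is in this gene set. The resulting depolarization is converted to action potentials by voltage-gated sodium channels and shaped by voltage-gated calcium and potassium channels. Calcium channels of the axon terminal drive transmitter release, potassium channels set the resting potential and end each spike, and small auxiliary subunits (Cacnb, Scnb, Kcnab, Kcnip, Kcnmb and Kcne genes) control how many channels reach the membrane and how they gate. Supporting cells, glia and other non-neuronal cells of the OE carry potassium channels too, inward rectifiers among them. In homogenate of a tissue, fewer cells of a type and less RNA per cell cannot be told apart, and in a pulldown neither can be separated from less phosphorylated S6.

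Libraries held 5438501 to 9707581 estimated counts, of which the channel genes made up 0.138% to 0.218%. Levels are given as CPM, counts per 1000000 of the library after TMM scaling. Levels of single genes are compared with each other after division by exon length (CPM per kb). Shares and sums over several genes are of CPM without that division. Exon length is that of all annotated exons of a gene together. The cDNA was primed with poly-T, so reads need not spread evenly along a transcript, and division by length can set long genes too low. A count of 3 corresponded to 0.309 to 0.552 CPM, which is taken as the floor. Of the 135 genes, 75 had a count in all 9 mice, 50 in 1 to 8 mice and 10 in none. The 10 without a count were Cacng7, Kcna10, Kcnh5, Kcnj6, Kcnk9, Kcnk15, Kcnk16, Kcnv1, Kcnv2 and Scn10a, and at these depths that only places them under the floor. The filter on low counts passed 80 of the 135, and the other 55 were not tested. The markers of mature OSNs were present in every library, with Omp at 3298 to 11981 CPM, and the activity gene Fosb, which rises in stimulated neurons, was at 1.77 to 8.86 CPM in the 6 control and 1% heptanal mice and at 67.1 to 95.6 CPM in the 3 mice given 100% heptanal.

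A few genes carried most of the channel counts. The 10 genes with the most CPM held 59.1% of the summed channel CPM, and the median of the 80 tested genes was 1.16 CPM per kb against 6.04 CPM per kb for all 14930 genes tested. Per kb, the highest was Cacnb3, a cytoplasmic beta subunit of high-voltage-activated calcium channels, with a mean of 62.2 CPM per kb. Below it came Kcnn4, the intermediate-conductance calcium-activated potassium channel, at 39.4 CPM per kb, the leak channel gene Kcnk1 at 28.6 and Kcnc4, a fast Shaw-type (Kv3) potassium channel, at 21.0. Also among the 10 highest were Scn3b, Kcnh3, Kcnrg, Kcna5 and Kcnj15 at 17.3, 14.4, 13.8, 12.4 and 9.28 CPM per kb. The ranges of neighbours in this order overlapped over the 9 mice, and Scn3b, Kcnrg and Kcnj15 spread the most of those named relative to their means, with low values in the postnatal day 22 litter.

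**Figure D1:**
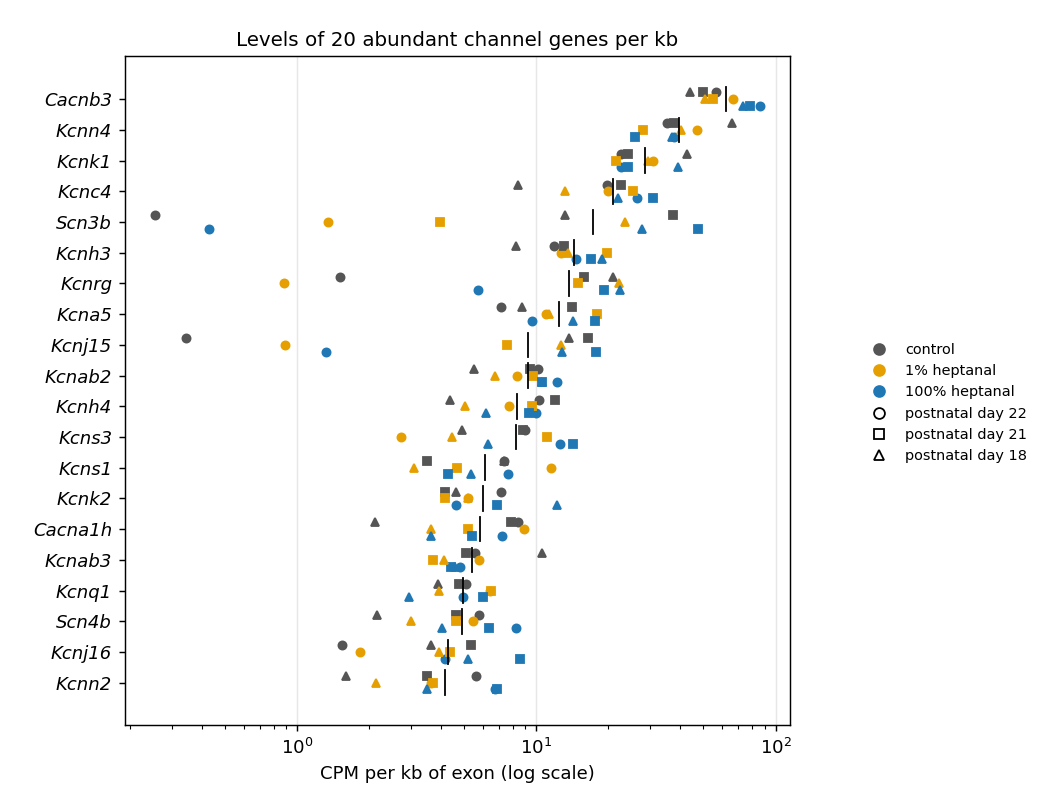
Levels of 20 abundant channel genes, in order of their mean, in CPM per kb of exon on a log scale (x axis), 1 gene per line. Each symbol is 1 mouse, with colour for the group and shape for the postnatal day, and the black bar is the mean of the 9 mice. Cacnb3 was highest with a mean of 62.2 CPM per kb, and the 3 mice of postnatal day 22 lay far to the left for Scn3b, Kcnrg and Kcnj15.

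By family, the Kv alpha subunits (27 genes, 13 tested) carried 20.3% of the summed channel CPM, the calcium channel beta subunits (4 genes) 16.9%, the leak channels (14 genes) 9.44% and the calcium- or sodium-activated potassium channels (8 genes) 8.50%. The pore-forming alpha subunits of sodium channels (10 genes, 4 tested) carried 3.13%, less than the 7.76% of their 4 beta subunits. Of the sodium alpha subunits, Scn8a was at 1.12, Scn9a at 0.515 and Scn3a at 0.271 CPM per kb. Scn9a encodes Nav1.7, the sodium channel known to be required for transmission from OSNs to the olfactory bulb. The share of reads that the authors' rescue scheme had assigned to it was 13.4%, and it was 21.2% for Scn3a. Among the pore-forming calcium channel genes, the T-type channel Cacna1h led at 5.81 CPM per kb, with the L-type Cacna1d at 2.43, the T-type Cacna1g at 0.709, the N-type Cacna1b at 0.377, the P/Q-type Cacna1a at 0.290 and the L-type Cacna1c at 0.197 CPM per kb.

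Exposure to 100% heptanal was compared with control over all 14930 genes tested (edgeR's quasi-likelihood test, Benjamini-Hochberg adjustment, threshold 0.05). None of the 80 channel genes passed, in either direction, with 0.0134% of all genes called higher and 0% called lower. The lowest adjusted p of a channel gene was 0.708. At an unadjusted p under 0.05, 3 channel genes were higher (3.75%, against 3.01% of all genes) and 1 was lower (1.25%, against 1.17%). A large part of the spread lay between litters, and with the litter as a replicate block 0.322% of all genes were called higher, again with 0 channel genes, the lowest adjusted p being 0.0685 for Cacnb3. In that blocked fit 12 channel genes had an unadjusted p under 0.05 with higher levels (15%, against 6.64% of all genes) and 1 with lower levels (1.25%, against 3.79%). DESeq2 called 1 channel gene higher without the block, against 0.442% of all genes, and 3 with it, against 1.52% of all genes, and 0 lower, against 0.0134% and 0.234% of all genes. These were Kcnmb2 without the block and Cacnb3, Kcnc4 and Kcnmb2 with it, at adjusted p-values of 0.039, 0.000929, 0.0405 and 0.0416 in that order, and for Kcnq5 DESeq2 gave no adjusted p with the block.

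The direction of the fold changes was not even. At 100% heptanal 50 of the 80 channel genes lay above their control level in the fit (62.5%, against 46.8% of all genes tested), with a median log2 fold change of 0.20 against -0.03 for all genes. In 10 channel genes the 3 values at 100% heptanal all lay above the 3 control values (12.5%, against 5.97% of all genes), and in 4 they all lay below (5%, against 3.55%). The 10 included Cacnb2, Cacnb3, Cacnb4, Kcnab2, Kcne3, Kcnh3, Kcnk3, Kcnmb2 and Kcnmb3, and the 4 were Kcnab1, Kcnab3, Kcnip3 and Kcnq5. Mature OSN markers were also higher in the 3 mice given 100% heptanal (7 of 7 fold changes above 0), with the sum of Omp, Adcy3, Ano2, Cnga2, Gnal, Rtp1 and Stoml3 at 4842 to 9956 CPM in controls and 11979 to 16996 CPM at 100% heptanal, and so were the sustentacular cell markers (4 of 4 above 0, 4186 to 5109 CPM in controls and 5399 to 7100 CPM at 100% heptanal), as were the immature OSN markers (4 of 4 above 0, 425 to 786 CPM in controls and 743 to 913 CPM at 100% heptanal), whereas 0 of the 4 olfactory ensheathing glia markers lay above 0 (204 to 327 CPM in controls and 168 to 218 CPM at 100% heptanal). Of the basal, muscle and red blood cell markers, 0 of 3, 0 of 4 and 0 of 2 lay above 0. The other lists were mixed, with 1 of 3 microvillous, 1 of 3 immune, 1 of 2 endothelial and 1 of 2 respiratory ciliated markers above 0. No marker of these lists passed the threshold without the block, and with it 2 of the 7 mature OSN markers were called higher. Their part in the channel values was not tested.

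Promoter sequence from RefSeq (GRCm38.p6, 250 bases before to 50 after a transcription start) was at hand for 100 of the 135 genes, in 136 windows. Because immediate-early genes such as Fosb are induced through the cAMP response element, both the full element TGACGTCA and its core TGACG, which is contained in the full one, were searched on both strands. The full element was in 0 of the 136 channel windows and 1.79% of all 32851 windows and the core in 25 channel windows (18.4%, against 20.8% of all). Of the 10 genes whose 3 values at 100% heptanal lay above the 3 controls, 7 had a window, 14 in all, and 2 of these (14.3%), of Cacnb2 and Kcnab2, held the core, a share below that of all windows. These 2 windows, at chr2:14823842-14824141 (plus strand) and chr4:152477500-152477799 (minus strand), are shown as the windows of these genes that held the core, with the core on either strand in capitals. A match in these letters is only a description of the sequence.
Cacnb2: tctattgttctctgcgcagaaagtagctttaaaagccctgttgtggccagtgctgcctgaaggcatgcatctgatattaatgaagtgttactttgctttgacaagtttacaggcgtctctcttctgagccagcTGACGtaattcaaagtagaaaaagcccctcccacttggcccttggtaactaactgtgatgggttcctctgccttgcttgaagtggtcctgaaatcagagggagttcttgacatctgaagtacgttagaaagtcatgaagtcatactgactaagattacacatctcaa
Kcnab2: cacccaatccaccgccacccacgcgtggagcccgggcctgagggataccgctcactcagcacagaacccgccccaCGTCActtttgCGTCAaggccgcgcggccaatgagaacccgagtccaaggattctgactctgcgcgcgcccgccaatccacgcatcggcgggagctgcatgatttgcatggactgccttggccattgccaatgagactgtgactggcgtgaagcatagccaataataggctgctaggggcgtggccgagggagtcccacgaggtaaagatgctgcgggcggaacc

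The calcium channel beta subunits included the gene with the lowest adjusted p under the litter block. In the order postnatal day 22, 21 and 18, Cacnb3 was at 252, 223 and 196 CPM in controls, 298, 246 and 228 CPM at 1% heptanal and 387, 352 and 329 CPM at 100% heptanal. All 3 mice at 100% heptanal lay above the other 6, and within each litter the level was lowest in the control and highest at 100% heptanal. The log2 fold change at 100% heptanal was 0.67 ± 0.18 (SE, n = 3 mice per group) with an adjusted p of 0.758 from edgeR without the block. Cacnb3 lies at chr15:98628436-98644536 on the plus strand (GRCm38.p6), and 22.9% of its counts came from the rescue scheme. With uniquely mapped reads alone its log2 fold change was again 0.67.

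Cacnb4 had 11, 14.4 and 11 CPM in controls, 13.9, 15.1 and 18.1 CPM at 1% heptanal and 18.5, 15.3 and 18.2 CPM at 100% heptanal, in the same order of litters. Cacnb2 had 3.87, 6.76 and 2.65 CPM in controls and 10.1, 8.55 and 7.97 CPM at 100% heptanal. In both, the 3 mice at 100% heptanal lay above the 3 controls by a margin smaller than the spread within a group. The log2 fold changes were 0.52 ± 0.25 and 1.00 ± 0.51 (SE), with adjusted p-values of 1 from edgeR for both. Cacnb1, at 0.349 CPM per kb the lowest of the 4, overlapped between the groups. The family as a whole summed to 242 ± 29.0 CPM in controls, 281 ± 36.1 CPM at 1% heptanal and 384 ± 30.6 CPM at 100% heptanal (SD, n = 3), and Cacnb3 made up most of it. The pore-forming calcium channel alpha subunits summed to 128 ± 69.1, 127 ± 55.2 and 114 ± 41.4 CPM, and 2 of the 6 tested lay above 0 on the log2 scale in the comparison of 100% heptanal with control.

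Kcnmb2, a beta subunit that inactivates the large-conductance calcium-activated (BK) channel, had the lowest unadjusted p at 100% heptanal. It had 6.51, 6.2 and 10.6 CPM in controls, 9.44, 12.5 and 11.7 CPM at 1% heptanal and 20.5, 18.4 and 17.2 CPM at 100% heptanal. The 3 mice at 100% heptanal stood above the other 6, and the 1% heptanal mice lay between the groups in every litter. The log2 fold change was 1.26 ± 0.31 (SE), with an unadjusted p of 0.00277 from edgeR over 3 against 3 mice and an adjusted p of 0.708. Kcnmb2 lies at chr3:31901861-32200180 on the plus strand. Its exon length is 15.5 kb, and its mean level after division by that length was 0.809 CPM per kb. Kcnmb3, another beta subunit, had 2.01, 2.68 and 3.54 CPM in controls and 8.57, 9.12 and 3.87 CPM at 100% heptanal, with a log2 fold change of 1.38 ± 0.74 (SE). The pore-forming BK gene Kcnma1 had 15.6, 12.8 and 9.60 CPM in controls and 13.4, 17.5 and 15.9 CPM at 100% heptanal, with overlapping groups and a log2 fold change of 0.30 ± 0.27 (SE).

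Kcnq5, a subunit of the slow M-type potassium channels that damp repeated firing, stood at the other end. Its levels were 3.72, 1.97 and 1.01 CPM in controls, 0.885, 1.39 and 1.57 CPM at 1% heptanal and 0.343, 0.140 and 0.228 CPM at 100% heptanal. These rested on 24, 14 and 8 counts in the controls and on 3, 1 and 2 counts at 100% heptanal, at or under the floor of 3 counts. Pooled over the 3 mice of each group, the level at 100% heptanal was 0.114 times that of the controls, with a 95% exact interval of 0.0396 to 0.266. This interval covers counting error only, takes every count as independent although PCR copies were not marked, and leaves out the spread between mice. Its log2 fold change was -3.13 ± 0.78 (SE), with an adjusted p of 0.708 from edgeR. Kcnq1, another KCNQ gene, had overlapping groups and a log2 fold change of 0.02 ± 0.34 (SE). Kcnq3 did not pass the filter.

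**Figure D2:**
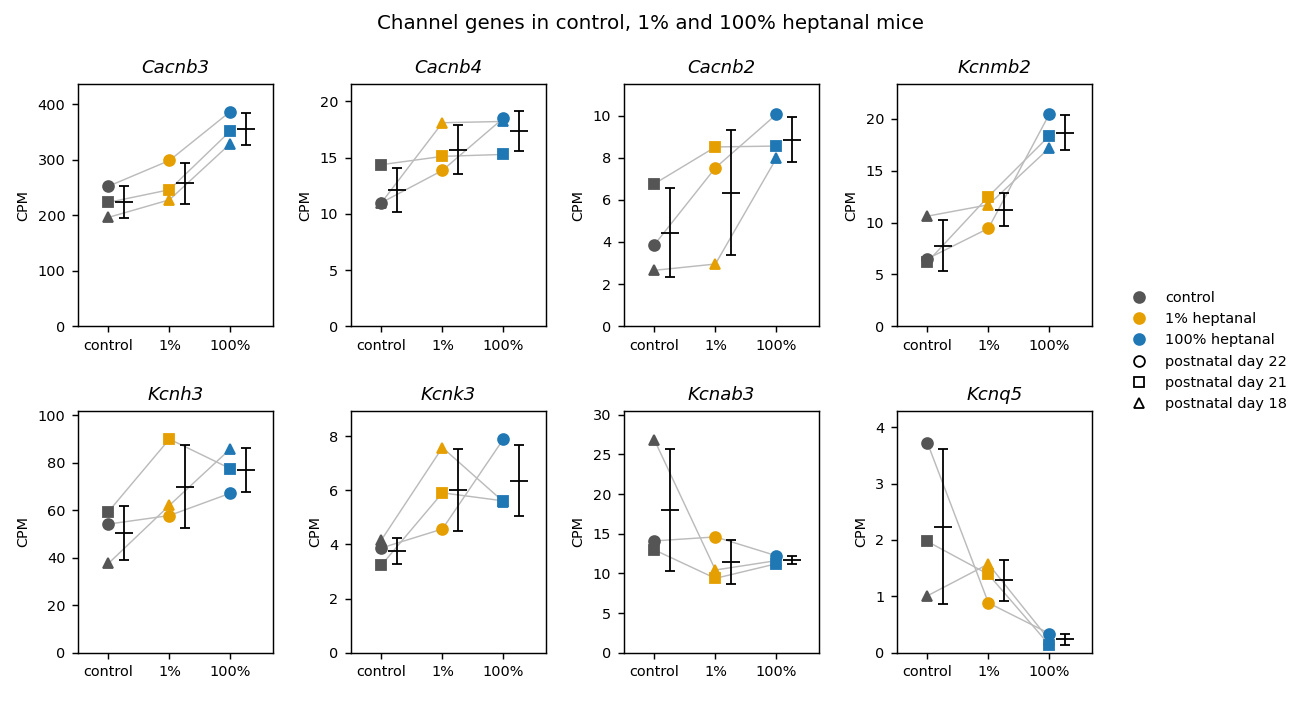
Levels of 8 channel genes (y axes, CPM from 0) in the control, 1% heptanal and 100% heptanal mice (x axes). Each symbol is 1 mouse, grey lines join the mice of a litter, and the bar beside each group is its mean with the SD of 3 mice. Cacnb3, Cacnb4, Cacnb2, Kcnmb2, Kcnh3 and Kcnk3 had 3 values at 100% heptanal above the 3 control values, and Kcnab3 and Kcnq5 had 3 values below them.

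Among the pore-forming potassium channels, Kcnh3, a brain-type member of the ether-a-go-go family (Elk), had 54.2, 59.5 and 37.7 CPM in controls, 57.8, 90.0 and 62.1 CPM at 1% heptanal and 67.2, 77.6 and 85.9 CPM at 100% heptanal. The lowest value at 100% heptanal exceeded the highest control, whereas the 1% heptanal mice overlapped with both groups. The log2 fold change at 100% heptanal was 0.61 ± 0.25 (SE), with an adjusted p of 1 from edgeR. Kcnc4 had 166, 191 and 70.5 CPM in controls, 168, 214 and 111 CPM at 1% heptanal and 222, 259 and 185 CPM at 100% heptanal. Its control and 100% heptanal values overlapped across litters, but within each litter the mouse at 100% heptanal was the highest. At 100% heptanal its log2 fold change was 0.64 ± 0.37 without the block and 0.74 with it, with adjusted p-values of 1 and 0.207 from edgeR. Of the 13 Kv alpha subunits tested, 9 had a log2 fold change above 0, with a median of 0.42. Kcna5 and Kcna6 were at 0.46 ± 0.35 and 0.60 ± 0.40 (SE), Kcna2 was at 0.55 ± 0.54, and Kcna1 and Kcnc1 were at -0.68 ± 0.83 and -0.32 ± 0.72.

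The leak (K2P) channels, which set the resting potential, showed no shared direction, with 3 of 6 above 0. Kcnk3 was the member whose groups did not overlap, with 3.87, 3.24 and 4.17 CPM in controls and 7.89, 5.61 and 5.58 CPM at 100% heptanal, a log2 fold change of 0.76 ± 0.38 (SE). Kcnk10 and Kcnk2 were at 0.54 ± 0.30 and 0.57 ± 0.37, and Kcnk1, the most abundant, at -0.05 ± 0.31. Kcnn4, which is also known from epithelial and immune cells, had 87.2, 93.1 and 162 CPM in controls and 93.2, 63.8 and 91.4 CPM at 100% heptanal. Its groups overlapped, and the log2 fold change was -0.46 ± 0.30 (SE).

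Of the other auxiliary subunits, Kcnab3 had 14.1, 13 and 26.8 CPM in controls, 14.6, 9.38 and 10.4 CPM at 1% heptanal and 12.2, 11.2 and 11.6 CPM at 100% heptanal. Its log2 fold change at 100% heptanal was -0.62 ± 0.35 (SE), and the control of postnatal day 18 stood far above the other 8 mice. Kcnip3, a calcium-binding partner of Kv4 channels that also acts as the transcriptional repressor DREAM, was at -0.70 ± 0.44. Its pore-forming partner Kcnd2 did not pass the filter on low counts. The sodium channel beta subunit Scn4b was at 0.57 ± 0.42, and Scn2b was at -0.51 ± 0.57. For the sodium alpha subunits Scn9a, Scn3a and Scn8a the values were 0.20 ± 0.60, -0.43 ± 0.50 and -0.29 ± 0.74 (SE), each with overlapping groups and an adjusted p of 1 from edgeR. In the fit without the block their standard errors were larger than the differences, which that fit could not detect. Kcnq1ot1 overlaps Kcnq1 on the opposite strand, and the library kit does not mark strand, so their reads cannot be told apart where they overlap.

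At 1% heptanal, 0 of the 80 channel genes passed the threshold, with 0% of all genes called (edgeR), and DESeq2 called 0 as well. At an unadjusted p under 0.05, 1 channel gene was higher (1.25%, against 0.335% of all genes) and 0 were lower (0.462% of all genes). With the litter block, 4 were higher (5%, against 1.32% of all genes), namely Kcne4, Kcna2, Kcna5 and Kcna6. With it 1 was lower (1.25%, against 1.94%), namely Cacna1b. The gene that was higher without the block was Kcne4, an auxiliary subunit that inhibits Kv1-type and KCNQ1 currents. It had 1.55, 1.27 and 1.26 CPM in controls, 4.57, 7.12 and 3.35 CPM at 1% heptanal and 1.14, 5.47 and 1.14 CPM at 100% heptanal. The 3 mice at 1% heptanal lay above the 3 controls, and at 100% heptanal only the mouse of postnatal day 21 did. The log2 fold change was 1.87 ± 0.72 (SE) at 1% heptanal and 0.91 ± 0.72 at 100% heptanal, the adjusted p of the former being 1. Values for the N-type calcium channel Cacna1b, Kcna6 and Kcnab3 at 1% heptanal were -1.20 ± 0.60, 0.74 ± 0.40 and -0.65 ± 0.35 (log2, SE). On leaving out 1 mouse they ranged over -1.56 to -0.81, 0.47 to 1.30 and -0.86 to -0.24, Kcna6 being highest without the control of postnatal day 21 and lowest without that of postnatal day 18, and Kcnab3 nearest 0 without the control of postnatal day 18. In 3 channel genes the mice at 1% heptanal lay wholly above the controls (3.75%, against 2.28% of all genes) and in 1, Kcna1, wholly below (1.25%, against 1.64%). Over the 80 genes, 38 had a log2 fold change above 0 (47.5%, against 47%), with a median of -0.03 against -0.02 for all genes.

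Between 100% and 1% heptanal, 0 of the 80 channel genes passed, with 0.0134% of all genes higher and 0% lower, and with the litter block 0 passed against 0.0804% of all genes higher. At an unadjusted p under 0.05 without the block, 2 were higher (2.50%, against 2.10%), namely Cacnb3 and Kcnmb2, and 1 was lower (1.25%, against 1.17%), namely Kcnq5. Their log2 fold changes were 0.47, 0.73 and -2.35.

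Summed over all 135 genes, the channel level was 1635, 1869 and 1440 CPM in the controls of postnatal day 22, 21 and 18, 1729, 1750 and 1525 CPM at 1% heptanal and 1950, 2232 and 1967 CPM at 100% heptanal. The 3 mice at 100% heptanal lay above the other 6, while the 1% heptanal mice lay among the controls. The means were 1648 ± 215, 1668 ± 124 and 2050 ± 158 CPM (SD, n = 3), and the ratio of 100% heptanal to control was 1.24 over the groups and 1.19, 1.19 and 1.37 within the litters. Without Cacnb3, which is the largest single term, the ratio was 1.19 and the groups overlapped, with the control of postnatal day 21 at 1646 CPM above the 100% heptanal mice of postnatal day 22 and 18 at 1563 and 1638 CPM, although the mouse at 100% heptanal was still the highest of its litter in all 3. No test was run on this sum, since its members were chosen together.

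Omp, the olfactory marker protein of mature OSNs, differed between the same groups by more than the channel sum. It was at 4461, 6511 and 3298 CPM in controls, 5723, 6598 and 4804 CPM at 1% heptanal and 9234, 11981 and 8711 CPM at 100% heptanal. The log2 fold change at 100% heptanal was 1.07, with an adjusted p from edgeR of 0.775 without the block and 0.031 with it. Within the litters, the ratio to control at 100% heptanal was 2.07, 1.84 and 2.64.

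Relative to Omp, the channel genes therefore ran the other way. In the same order of litters the channel counts per 1000 Omp counts were 366, 287 and 437 in the control mice, 302, 265 and 317 in the 1% heptanal mice and 211, 186 and 226 in the 100% heptanal mice. In each litter the value was highest in the control and lowest at 100% heptanal, and the 3 mice at 100% heptanal lay below the other 6. The means were 363 ± 74.8, 295 ± 26.8 and 208 ± 19.99 per 1000 Omp counts (SD, n = 3), so that the ratio to control was 0.811 at 1% heptanal and 0.572 at 100% heptanal. These ratios divide by 1 transcript, and a change in Omp moves every gene by the same amount.

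**Figure D3:**
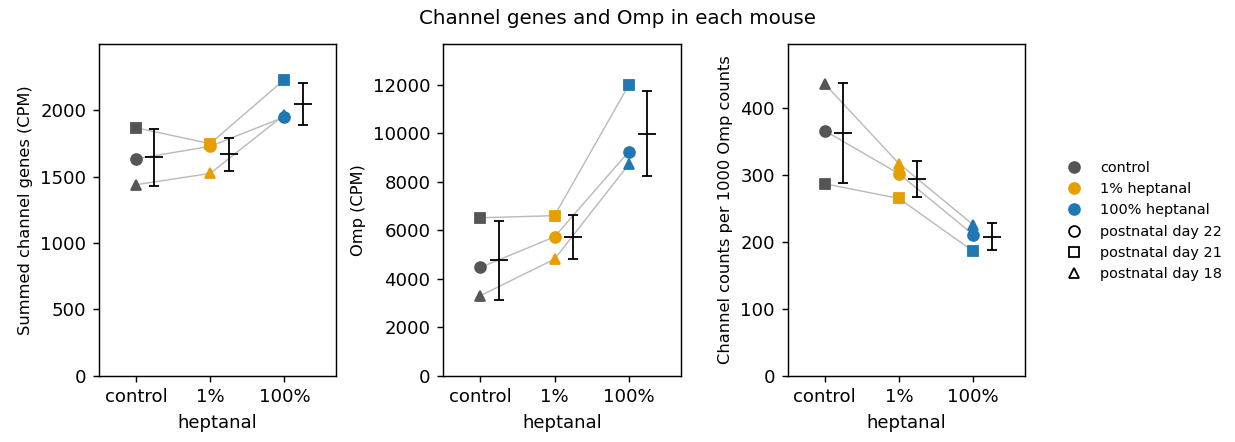
Each mouse's summed level of the 135 channel genes in CPM (left), its level of Omp in CPM (middle) and its channel counts per 1000 Omp counts (right), by group on the x axis and from 0 on the y axes. Grey lines join the mice of a litter, and bars give the group mean with the SD of 3 mice. The mean sum went from 1648 to 2050 CPM between control and 100% heptanal while Omp went from 4757 to 9975 CPM, and the ratio of the channel genes to Omp went from 363 to 208 per 1000.

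Gene by gene, library sizes were then set by the Omp count of each mouse. At 100% heptanal, 76 of the 80 channel genes had a log2 fold change below 0 relative to Omp (95%, against 97.3% of all genes), with a median of -0.91 against -1.18 for all genes, and 0 passed the threshold in edgeR without the block, where the lowest adjusted p was 0.0509, 16 had an unadjusted p under 0.05 with lower levels (against 51.7% of all genes) and 0% of all genes passed. With the litter block 27 of the 80 were lower than Omp (33.8%, against 68.7% of all genes) and 0 were higher (against 0.255%). The share of channel genes called was thus under that of all genes, with a median log2 fold change in this fit of -0.87 against -1.11. Channel genes also had lower levels per kb than all genes tested, and the part of level in the share called was not tested. At 100% against 1% heptanal the blocked fit called 18 lower (22.5%, against 45.6%) and 0 higher (against 0.429%), and at 1% heptanal against control it called 0, with 0% of all genes called. Most mature OSN markers were lower relative to Omp as well. At 100% heptanal against control the 7 markers, Omp among them, had a median log2 fold change of -0.32 without and with the block. In both fits 2 of the 7 lay above 0, and with the block 2 were called lower.

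By family, the 27 included 3 of 3 KCNQ genes tested, 3 of 3 Kv beta subunits, 4 of 6 calcium alpha subunits and 3 of 4 sodium alpha subunits. Beside these were 4 of 13 Kv alpha subunits, 2 of 12 KCNE and other potassium auxiliary subunits and 2 of 6 leak channels. Calcium- or sodium-activated channels had 3 of 7, EAG and ERG channels 1 of 5, sodium beta subunits 1 of 4 and calcium gamma subunits 1 of 3. Calcium beta subunits had 0 of 4 and inward rectifiers 0 of 8. The share over all genes tested was 68.7% in this fit. Without the block the median log2 fold change relative to Omp was -0.52 in the calcium beta subunits and -0.67 in the inward rectifiers, 1 gene of each lying above 0, and differences between families were not tested. The lowest values relative to Omp were those of Kcnq5 at -4.12 ± 0.94, Kcnab1 at -2.24 ± 0.75, Kcna1 at -2.05 ± 0.81 and Kcnip3 at -1.78 ± 0.33 (log2, SE, blocked fit). Among the abundant members, Kcnn4 was at -1.57 ± 0.27, Kcnk1 at -1.17 ± 0.24 and Cacna1h at -1.13 ± 0.24, with adjusted p-values of 0.00128, 0.00213 and 0.00212 from edgeR. The median of all genes tested was -1.11 in this fit, so Kcnk1 and Cacna1h lay near the value that all genes shared relative to Omp. Kcnn4 had, per 1000 Omp counts, 19.5, 14.3 and 49.2 in the 3 controls and 10.1, 5.33 and 10.5 at 100% heptanal. The channel genes above 0 relative to Omp in the blocked fit were Kcnmb3, Kcnmb2, Kcnj13 and Cacnb2, at 0.21, 0.17, 0.12 and 0.01, with adjusted p-values of 0.794, 0.697, 0.872 and 0.989 from edgeR. Cacnb3 was at -0.44 relative to Omp, with an adjusted p of 0.0615 from edgeR, and had, per 1000 Omp counts, 56.5, 34.3 and 59.4 in the 3 controls and 41.9, 29.4 and 37.8 at 100% heptanal, so that its direction turned with the scaling. The other genes that turned with it are given among the dependences on processing.

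**Figure D4:**
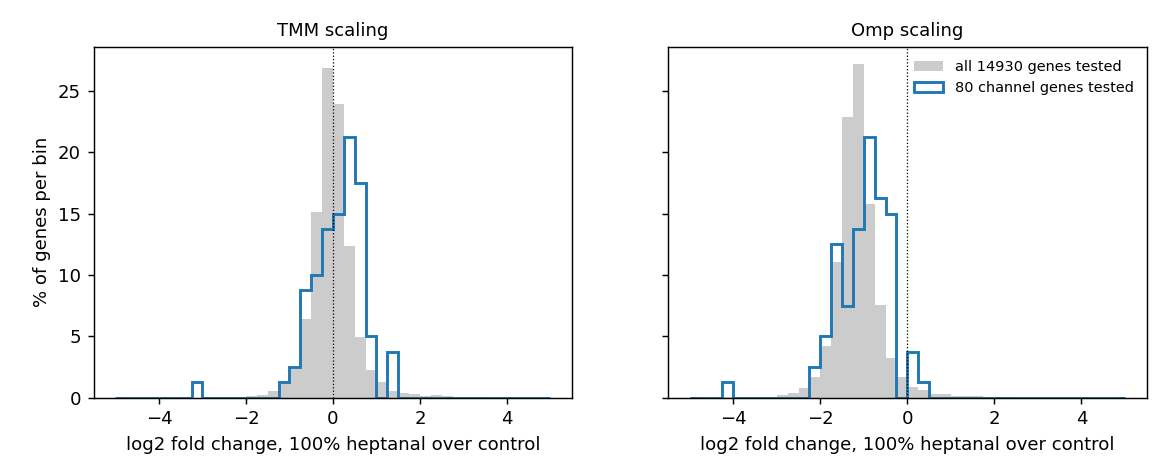
Distribution of log2 fold changes at 100% heptanal against control, as the percentage of genes per bin of the x axis, with library sizes scaled by TMM (left) and by the Omp count (right), values beyond the axis being drawn in its end bins. Grey bars are all 14930 genes tested and the blue line is the 80 channel genes tested. The median of the channel genes was 0.20 on the left against -0.03 for all genes, and -0.91 on the right against -1.18.

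Other genes of neuronal excitability, listed beside the channel genes, gave a comparison. Of 23 genes of the HCN, NALCN, cyclic nucleotide-gated, ANO2, sodium pump, calcium pump, exchanger and calmodulin families, 18 were tested and 0 passed the threshold at 1% or 100% heptanal, with or without the block. In the comparison of 100% heptanal with control 13 of the 18 lay above 0 on the log2 scale, with a median of 0.38. The transduction channel subunit Cnga2 had 20.6 CPM in the 1% heptanal mouse of postnatal day 22 and 121 to 506 CPM in the other 8 mice. Of the 7 activity genes (Fos, Fosb, Junb, Egr1, Nr4a1, Arc and Npas4), 1 passed at 100% heptanal without the block and 4 with it.

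The litters differed in the channel genes by more than the groups did. Over the 80 genes tested, the median share of variance on the log2 scale that lay between postnatal days was 48.8%, against 20.3% between groups, and the same shares over all genes were 52.1% and 14%. In 11 channel genes the 3 mice of postnatal day 22 all lay below the other 6 (13.8%, against 15% of all genes tested), and in 8 they all lay above (10%, against 9.4%). In the postnatal day 18 mice 9 lay below the other 6 (11.2%, against 7.98%) and 1 above (1.25%, against 6.96%). The genes of the following sentences were picked for these values, which are given as descriptions.

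The widest of these differences concerned inward rectifiers and a sodium channel beta subunit. Kcnj15, an inward rectifier, was at 2.17, 5.60 and 8.34 CPM in the control, 1% heptanal and 100% heptanal mice of postnatal day 22, and at 47.6 to 112 CPM in the other 6. Scn3b was at 1.08, 5.75 and 1.83 CPM in the postnatal day 22 mice, at 158, 16.9 and 202 CPM in those of postnatal day 21 and at 56.1, 99.9 and 118 CPM in those of postnatal day 18. Kcnj10, the glial inward rectifier Kir4.1, was at 0 to 0.229 CPM, under the floor, in the postnatal day 22 mice and at 1.91 to 10.7 CPM in the other 6. Kcnj1 and Kcnrg ran the same way, at 0 to 0.147 CPM against 0.174 to 7.74 CPM and at 1.62 to 10.5 CPM against 27.3 to 41.2 CPM. Each of the groups had 1 of these low mice. For Kcnj1 the lowest of the other 6 mice, at 0.174 CPM, was itself under the floor, so its separation between litters is not resolved.

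Markers of other cell types did not all follow these genes. The summed sustentacular markers were at 4730 to 5399 CPM in the postnatal day 22 mice and 4186 to 7100 CPM in the other 6, whereas within that list Ermn was at 0.295 to 7.77 CPM in the former and 21.2 to 115 CPM in the latter. Of the 4 olfactory ensheathing glia markers, Fabp7 was at 0.295 to 1.37 CPM against 11.6 to 78.6 CPM, while Sox10 was at 111 to 176 CPM against 99.4 to 194 CPM. Whether any cell type has a part in the difference between litters was not tested.

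The pore-forming sodium and calcium alpha subunits ordered the litters differently. Of the 10 tested, 8 had their lowest mean in the postnatal day 18 litter (all genes tested 33.8%) and 7 their highest in the postnatal day 22 litter (all genes tested 39.1%). They summed to 248, 183 and 96.4 CPM in the litters of postnatal day 22, 21 and 18. Markers of other cell types differed between the same litters, with 2 endothelial markers at 40 to 48.8, 20.2 to 23.4 and 14.3 to 15.8 CPM, 2 red blood cell markers at 4512 to 7518, 3440 to 7370 and 629 to 1055 CPM and 4 muscle markers at 324 to 547, 364 to 425 and 128 to 220 CPM in that order, and their part in the channel values was not tested. Scn8a, the sodium channel Nav1.6 of axon initial segments, was at 21.0 to 30.5 CPM on postnatal day 22, 10.4 to 14.7 CPM on postnatal day 21 and 4.82 to 7.71 CPM on postnatal day 18, with no overlap between the litters. Cacna1h was at 77.6 to 95.9, 56.3 to 85.1 and 22.9 to 39.5 CPM, and Cacna1d at 50.2 to 65.8, 38.9 to 47.1 and 19.2 to 27.9 CPM. With 1 litter per age, age cannot be told apart from litter, and the library names put the 3 mice of postnatal day 22 in one series (YJC) and the other 6 in another (YJE), so that the series cannot be told apart from postnatal day 22 either.

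**Figure D5:**
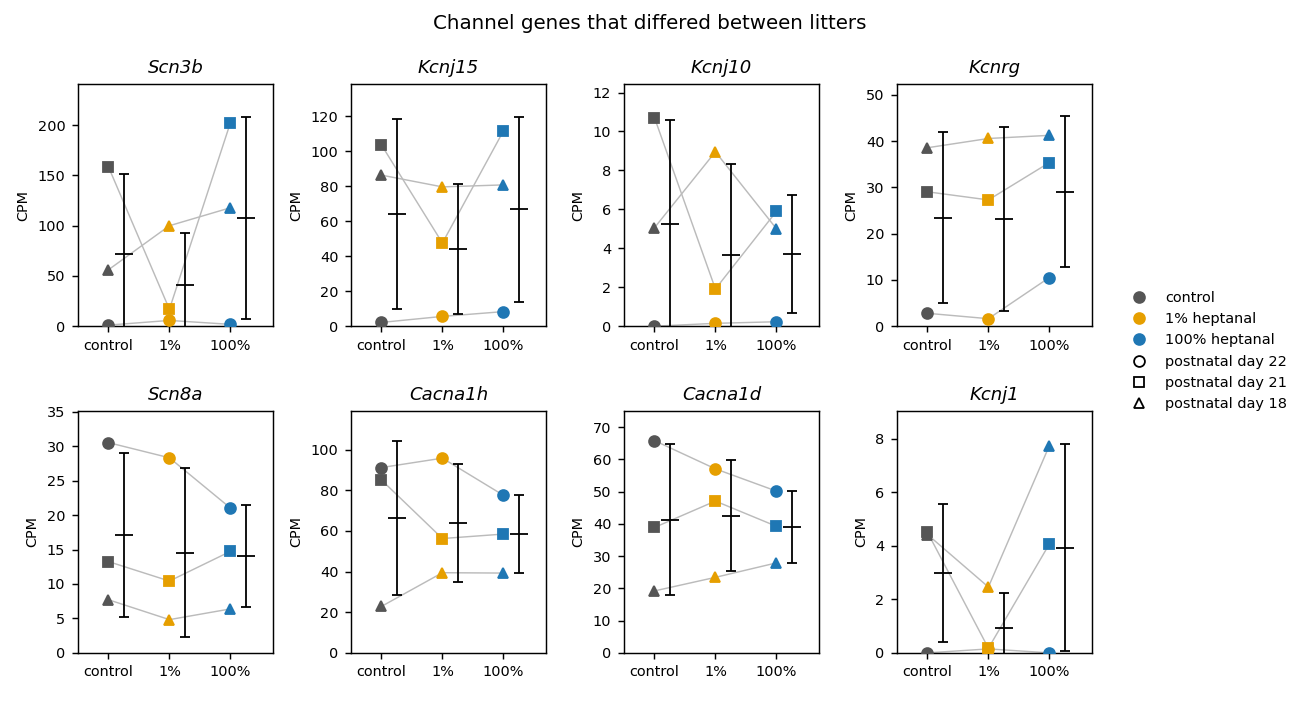
Levels of 8 channel genes (y axes, CPM from 0) by group (x axes) that were chosen because they differed between litters. Symbols give the postnatal day, grey lines join littermates, and bars give the group mean with the SD of 3 mice. Circles (postnatal day 22) lay at or near the bottom for Scn3b, Kcnj15, Kcnj10, Kcnrg and Kcnj1, and triangles (postnatal day 18) lay at the bottom for Scn8a, Cacna1h and Cacna1d.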

How the data were processed

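RNA bound to phosphorylated ribosomes of the OE of 9 mice was reverse-transcribed from a poly-T primer, PCR-amplified without molecular identifiers and sequenced from Nextera libraries. Per the submitters' notes, mm10 was the genome, Bowtie the aligner and BEDTools the counter, and reads that fitted several genes were shared out by a rescue scheme. The tables carry no header, and what each column holds was read from its values. Column 21 holds the estimated counts deposited by the authors, which were rounded, and column 2 the counts of uniquely mapped reads deposited by the authors, used as an alternative. The other 18 columns of values were not used.

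All genes were tested together in edgeR 4.0.16 (R 4.3.3) with filterByExpr, TMM, glmQLFit and glmQLFTest, 3 groups and no block, and p-values were adjusted over the 14930 genes tested. The SE of a fold change is its size over the root of edgeR's F statistic, taken without the block where none is named. With the block, edgeR's common dispersion, its measure of spread between mice, fell from 0.253 to 0.081. Exon lengths and positions came from RefSeq (GRCm38.p6), which held all 135 genes, 1 through a synonym. Replicate numbers stand for postnatal days. In 9 same-day pairs of mice the deviations from the group means correlated at 0.179 to 0.761 (mean 0.573). In the other 18 pairs they correlated at -0.777 to 0.441 (mean -0.27), a mean that the subtraction of group means itself lowers. These ranges overlapped, the lowest same-day values, 0.179 and 0.296, being those of the 1% heptanal mouse of postnatal day 21. Because the methods describe littermates, the numbers were taken to pair the mice. The fit with the day as a replicate block therefore stands beside the unblocked one. Alternatives, 20 fits in all, changed the block, normalization (RLE, library totals, Omp, 5 OSN markers), counts, filter or tool (DESeq2 1.42.0) or left out 1 of the 9 mice. The steps were tested on simulated data.

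Genes named by rule are those past the threshold, the 10 lowest p-values at 100% heptanal and 5 at 1% heptanal, the 10 highest levels per kb and a fixed list of 26. Other names, among them those of the litter differences and of groups that did not overlap, were chosen after their values were seen. The members and lists were chosen with earlier results of these data known. Each library came from 1 mouse. Intervals and floors cover counting error only. A few genes are counted in the totals but not reported here.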

Additional observations from a re-analysis of the deposited data

How the results depend on the processing

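No channel gene passed the threshold in any of the 3 comparisons in edgeR without the block, with the replicate block (0 calls in each), with RLE factors, library totals or uniquely mapped reads, without the filter, or on leaving out any 1 of the 9 mice (0 to 0 calls). Calls appeared under DESeq2 at 100% heptanal against control, with 1 gene without the block and 3 with it, all of them higher, and under scaling by neuron markers together with the block, where every call was lower. There, Omp gave 27 genes at 100% heptanal against control and 18 against 1% heptanal, and 5 OSN markers gave 23 and 17. The block raised the count of all genes called higher at 100% heptanal from 2 to 48, and DESeq2 raised it to 66 without the block and 227 with it.

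Of 398 recomputed values, 358 kept their direction and side of the threshold or moved by less than the spread, and 21 turned direction, every one of them through scaling by neuron markers. Scaled by Omp without and with the block, the log2 fold change at 100% heptanal was -0.46 and -0.44 for Cacnb3, -0.57 and -0.58 for Cacnb4, -0.47 and -0.48 for Kcnh3, -0.58 and -0.54 for Kcnk10 and -0.41 and -0.34 for Kcnk3, and with the block it was -0.083 for Kcnj5. Scaled by 5 OSN markers the pairs were -0.39 and -0.36, -0.50 and -0.50, -0.39 and -0.40, -0.51 and -0.46, and -0.35 and -0.27 for the same first 5 genes in that order. This follows from the scaling itself, which lowered the median of all genes to -1.18 with Omp.

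The summed channel level was 2161, 2184 and 2667 CPM in control, 1% and 100% heptanal mice with uniquely mapped reads, and 1424, 1410 and 1694 CPM without Cacnb3, an alternative chosen after seeing the data, as were the 5 markers with the block. Without Cacnb3 the level per 1000 Omp counts was 313 in controls, 249 at 1% and 171 at 100% heptanal. On leaving out 1 mouse the sums ranged over 1537 to 1752, 1627 to 1739 and 1959 to 2100 CPM, and over 327 to 402, 284 to 310 and 199 to 219 per 1000 Omp counts. At 3 mice per group, a change of several standard errors could go uncalled. That of Kcnmb2 at 100% heptanal, 1.26 ± 0.31 (log2, SE), had an adjusted p of 0.708 from edgeR without the block. Genes under the floor of 3 counts have no order.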

Other observations

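Reads that the rescue scheme had to assign made up 3.02% to 5.96% of the channel counts of a mouse, against 23.9% to 30.5% of all counts. They made up all of the estimated counts (100%) of the inward rectifier Kcnj14, which had no uniquely mapped read and did not pass the filter, so no level of its own can be given.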
